A study of Mus musculus with 9 samples.

Results

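Replication-dependent histone genes encode the bulk of the H1, H2A, H2B, H3 and H4 proteins around which DNA is wrapped. They were taken as every gene whose symbol in the authors' deposited tables begins with Hist1h to Hist4h, with symbols ending in -ps left out, which gave 69 genes of the 54838 in the count files. By type, 6 encode the linker histone H1, 20 encode H2A, 18 encode H2B, 12 encode H3 and 13 encode H4. GENCODE M21 lists 67 of them as protein-coding and the other two, Hist1h2aj and Hist1h2al, as pseudogenes. RNA sequencing compared 4 groups of mouse cells kept in culture medium for 5 h. B16F10, a melanoma line of C57BL/6 origin, gave 3 untreated libraries and 3 libraries after 600 µM hypochlorous acid (HOCl), the oxidant that neutrophil myeloperoxidase makes from hydrogen peroxide and chloride. Splenic CD8+ T cells of adult C57BL/6 mice, taken with an isolation kit, gave 2 untreated libraries and 1 library after the same dose of HOCl. The labels do not say whether replicates are separate cultures or mice. The p-values therefore cover only the spread among these libraries, and that spread may be technical.

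In dividing cells these genes are transcribed together in S phase by NPAT, and most of their transcripts end in a short stem-loop in place of a poly(A) tail. The stem-loop binding protein SLBP holds that end, the U7 snRNP with LSM10 and LSM11 guides its cleavage, and the transcripts are degraded when DNA synthesis stops. Some copies, H1 and H2B genes in particular, can also give longer polyadenylated transcripts that persist outside S phase. Many copies of one type are nearly identical, so reads from them can fit several genes, and how such reads were counted is not given in the sources used here. The strand setting of the counting, and whether polyadenylated RNA was selected, are also not given there.

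The 3' stem-loop is shown for the 7 members that rose in B16F10 and had a match, and for 2 H4 genes with different forms, because it is the shared feature of the family and the annotated transcript can run far beyond it. The 16-base pattern of the histone stem-loop, with complementary arms around a loop rich in T, was searched on the sense strand in the first 100 bases after each stop codon of the GENCODE M21 transcripts on GRCm38. It was found in 44 of the 49 members that had a match or a complete window (89.8%), against 24 of 20136 other protein-coding genes with a complete window (0.119%). Members with a shorter window were counted only if they matched, which raises their share, so the denominators are unlike. Capitals mark the match and lower case the flanking bases, 5' to 3'.
Hist1h1c: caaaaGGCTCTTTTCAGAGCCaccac
Hist1h1d: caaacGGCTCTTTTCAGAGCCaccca
Hist1h1e: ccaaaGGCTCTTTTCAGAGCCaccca
Hist1h2ad: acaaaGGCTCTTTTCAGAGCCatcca
Hist1h2be: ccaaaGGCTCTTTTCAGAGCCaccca
Hist1h2bg: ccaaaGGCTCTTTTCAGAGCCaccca
Hist1h3d: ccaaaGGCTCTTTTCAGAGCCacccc
Hist1h4d: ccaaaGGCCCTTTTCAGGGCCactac
Hist1h4i: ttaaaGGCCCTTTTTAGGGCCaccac
The form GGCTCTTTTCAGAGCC was shared by 26 members of the H1, H2A, H2B and H3 types. The 7 members with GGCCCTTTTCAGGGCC were all H4 genes. Of the other forms, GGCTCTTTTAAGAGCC was found in 6 members, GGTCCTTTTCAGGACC and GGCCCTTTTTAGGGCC in 2 each and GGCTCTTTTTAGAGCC in 1. The window held no match in Hist2h2be, Hist1h2bc, Hist1h2bq, Hist1h2br and Hist1h4a, and 18 models end within 100 bases of the stop codon with no match.

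Annotated transcripts of 25 members run at least 50 bases beyond the stem-loop, and 19 end within 50 bases of it. Hist1h1c runs 840 bases beyond, Hist1h1e 1153 and Hist1h1d 4884. Of the 25 longer models, 11 hold AATAAA or ATTAAA, the usual poly(A) signals, in their last 50 bases. In untreated B16F10, the 25 longer models summed to 41.96 ± 3.18 CPM (counts scaled to 1 M gene counts per library; SD, n = 3) and the 19 shorter ones to 1.35 ± 0.316. Of the sum of the longer models, Hist1h1c alone gave 27.3 CPM. The other 25 members, in which no stem-loop was found, summed to 35.9 ± 1.73, of which Hist1h2bc held most. Gene counts do not say where in a model a read fell, so transcripts that end at the stem-loop and longer ones cannot be told apart.

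Upstream sequence is shown for the 3 H1 genes and 1 H2B gene that rose together in B16F10, from RefSeq on GRCm38.p6, as the 150 bases before the RefSeq start. Capitals mark the box CCAAT, the TATA box (TATAAA, also where it lies on the other strand), the octamer ATTTGCAT and the H1 box AAACACA. The intervals are chr13:23738657-23738806 (+) for Hist1h1c, chr13:23554882-23555031 (+) for Hist1h1d, chr13:23622559-23622708 (-) for Hist1h1e and chr13:23571250-23571399 (+) for Hist1h2bg.
Hist1h1c: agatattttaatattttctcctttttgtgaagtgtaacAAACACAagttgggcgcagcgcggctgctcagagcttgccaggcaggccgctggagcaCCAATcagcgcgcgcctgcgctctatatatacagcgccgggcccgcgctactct
Hist1h1d: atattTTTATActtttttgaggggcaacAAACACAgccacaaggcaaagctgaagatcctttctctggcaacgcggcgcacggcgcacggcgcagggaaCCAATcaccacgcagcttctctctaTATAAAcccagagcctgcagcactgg
Hist1h1e: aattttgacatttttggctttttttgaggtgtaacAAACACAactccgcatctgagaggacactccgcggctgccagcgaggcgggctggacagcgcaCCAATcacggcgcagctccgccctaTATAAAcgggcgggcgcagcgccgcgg
Hist1h2bg: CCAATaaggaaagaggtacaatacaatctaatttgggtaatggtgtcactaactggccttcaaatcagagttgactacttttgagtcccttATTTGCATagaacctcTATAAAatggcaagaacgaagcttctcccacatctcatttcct
Promoters were matched for 61 of the 69 members and searched over 250 bases upstream on both strands. AAACACA was found in 5 of 6 H1 promoters against 6.25% of all 32851 promoters. ATTTGCAT was found in 7 of 17 H2A and 7 of 16 H2B promoters and in no H1, H3 or H4 promoter, against 1.6% of all. CCAAT was found in 82.0% of the members' promoters and 33.8% of all, and TATAAA in 47.5% and 12.4%. These matches describe the letters only.

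Gene counts per library were 45.9 to 61.35 M in B16F10 and 49.93 and 52.09 M in untreated T cells, while T cell HOCl had 12.85 M. A gene at 0 could stand at up to 3 counts, or 0.0489 to 0.0654 CPM in B16F10 and untreated T cells and 0.234 CPM in T cell HOCl, for counting error only. Summed markers of melanocytes (8 genes such as Pmel and Dct) stood at 24580 to 25650 CPM in B16F10 and at 25.9 and 102.9 CPM in untreated T cells. The library labelled T cell HOCl held 6861 CPM of them, beside 546 CPM of T cell markers against 2797 and 2835 CPM in untreated T cells, and mitochondrial genes took 37.43% of its counts. Its values go against its label to that extent and are given apart. Of genes typical of B cells, Ighm, the IgM heavy chain, stood at 1242 and 2332 CPM in untreated T cells, Cd79a at 6.09 and 9.79 CPM and Cd79b at 7.91 and 10.8 CPM, and in the 3 untreated B16F10 libraries at most at 0.685, 0.273 and 0.13 CPM. B16F10 HOCl replicate 3 held 25.9 CPM of T cell markers against 4.40 to 6.12 CPM in the other 5 B16F10 libraries, and erythroid markers were at 0 in all 6. Among genes with 2 to 100 counts, 72.4 to 75.4% had an even count in 8 libraries and 57.7% in T cell HOCl. Counting intervals given here treat every count as independent and would be wider if counts came in pairs.

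Most histone members had few or no counts. Of the 69, 6 were at 0 in all 9 libraries and 21 were at 0 in all 6 of B16F10. In untreated B16F10 2 members, Hist1h2bc and Hist1h1c, held 71.2% of all member counts. The sum over the 69 members was 84.8, 74.7 and 78.2 CPM in the untreated B16F10 libraries and 131.5, 123.0 and 115.2 CPM in the HOCl libraries. The groups did not overlap, with means of 79.2 ± 5.16 and 123.2 ± 8.16 CPM (SD, n = 3 each), a 1.56-fold difference. No p-value is given for a sum over chosen members.

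**Figure D1:**
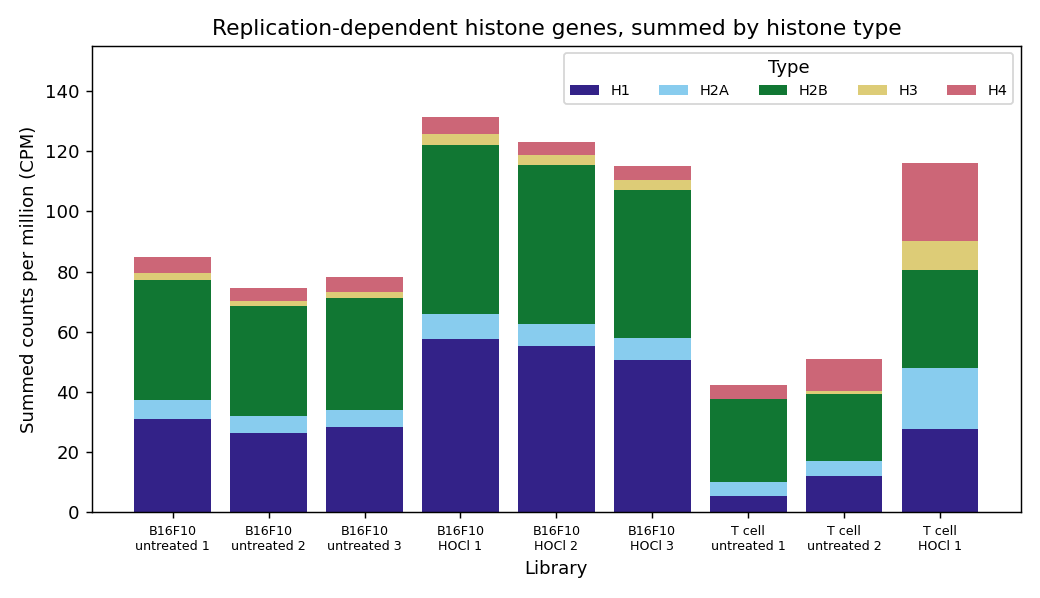
Summed CPM of the 69 histone members in each of the 9 libraries, stacked by histone type. The B16F10 HOCl libraries stand at 115.2 to 131.5 CPM, above the untreated ones at 74.7 to 84.8, and the added height lies mostly in the H1 and H2B segments.

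By type, the H1 genes together gave 28.6 ± 2.31 CPM in untreated B16F10 and 54.5 ± 3.50 CPM with HOCl (SD, n = 3 each), 1.91-fold more. H2B genes gave 38.0 ± 1.80 and 52.7 ± 3.48 CPM, 1.39-fold more. H3 genes gave 1.92 ± 0.244 and 3.41 ± 0.270 CPM and H2A genes 5.76 ± 0.388 and 7.72 ± 0.556 CPM. These 4 types had no overlap between the untreated and HOCl libraries. Single genes held most of some sums, so a type sum does not speak for each of its genes. Hist1h1c gave 27.3 and 50.9 CPM of the H1 sums, and Hist1h2bc 29.0 and 41.55 CPM of the H2B sums. Hist3h2a, which did not pass the test given below, gave 4.22 and 5.10 CPM of the H2A sums. H4 genes gave 4.95 ± 0.486 and 4.88 ± 0.734 CPM, and their libraries overlapped. The members lie in 8 blocks separated by at least 100000 bases, and the block at chr13:23531050-23764406 with 29 members held 64.1 ± 5.36 CPM without HOCl and 107.0 ± 7.64 CPM with it. The block at chr13:21715763-21837530 holds 19 members and summed to 0 to 0.0489 CPM in the 6 B16F10 libraries.

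HOCl raised 8 histone genes in B16F10 and lowered none. They were the H1 genes Hist1h1c, Hist1h1d and Hist1h1e, the H2A gene Hist1h2ad, the H2B genes Hist1h2bc, Hist1h2be and Hist1h2bg, and the H3 gene Hist1h3d, with rises from 1.40-fold to 5.16-fold. No H4 gene passed the test. All 8 lie in the 29-member block on chromosome 13, which also holds 17 of the 23 members tested. A low-count filter left 23 members, of which 8 (34.8%) were higher, against 14.7% of the 16082 genes tested, and 0 were lower, against 13.5%. The median log2 fold change was 0.65 over the 23 members and -0.01 over all genes tested. Calls were made at an adjusted p under 0.05 by the quasi-likelihood (QL) test of edgeR, adjusted after Benjamini and Hochberg (BH) over all genes tested. At an unadjusted p under 0.05, 11 members (47.8%) passed, against 39.1% of all genes tested. The filter asks for about 0.199 CPM, and 6 members reached it in all HOCl libraries but not in every untreated one. Hist1h2ad and Hist1h3d are among these, so their entry into the test rested on the group in which they were high, and the counts over tested members support no statement about the family. With all 9 libraries in 1 fit, and when tested against a 1.5-fold change, 0 of the 8 passed.

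**Figure D2:**
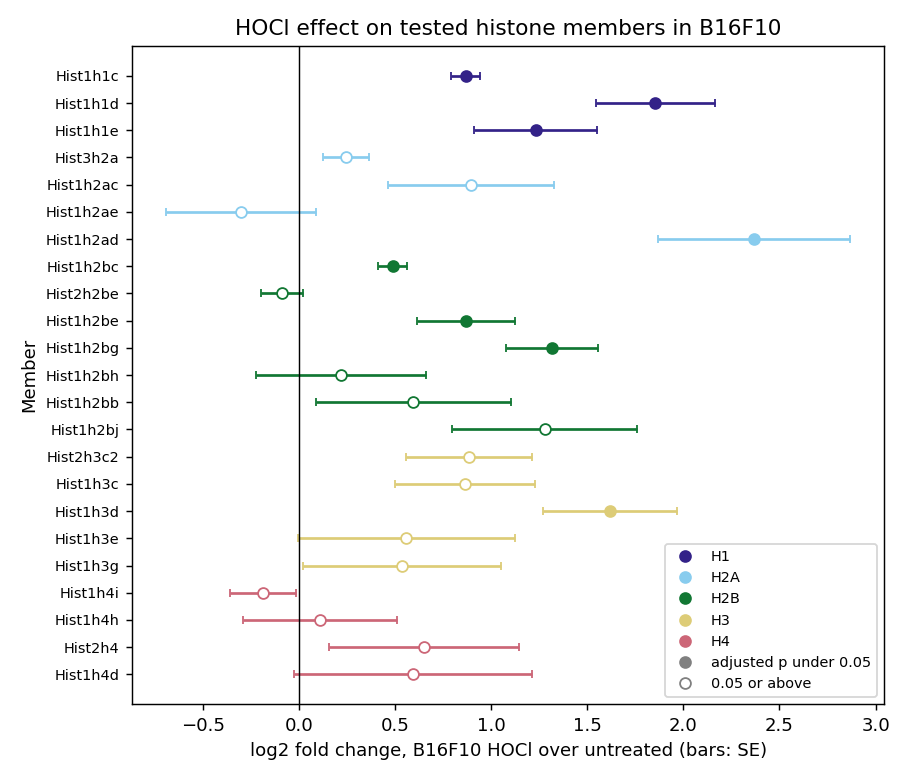
Log2 fold change of HOCl over untreated for the 23 members tested in B16F10, with bars of 1 SE, coloured by histone type. Filled points passed at an adjusted p under 0.05, and all 8 lie to the right of 0, from 0.49 for Hist1h2bc to 2.37 for Hist1h2ad.

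Hist1h1c (ENSMUSG00000036181, chr13:23738808-23740367, + strand) encodes linker histone H1.2, which binds DNA between nucleosomes. It stood at 29.7, 25.1 and 27.2 CPM without HOCl and at 53.8, 51.6 and 47.4 CPM with it. Every HOCl library was far above every untreated one. The log2 fold change was 0.87 ± 0.07 (SE), 1.83-fold (BH-adjusted p = 1.24e-05, edgeR QL test). Only 5.07% of the 100-base windows of its transcripts recur in another gene.

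Hist1h1d (ENSMUSG00000052565, chr13:23553262-23560686, + strand), the gene of H1.3, stood at 0.815, 0.672 and 0.305 CPM without HOCl and at 2.65, 2.05 and 2.01 CPM with it. The groups were well apart, and the untreated libraries differed among themselves more than the treated ones did in proportion. It rose 3.61-fold (log2 1.85 ± 0.31) (BH-adjusted p = 0.001, edgeR QL test). Hist1h1e (ENSMUSG00000051627, chr13:23620629-23622558, - strand), the gene of H1.4, stood at 0.326, 0.567 and 0.675 CPM and, with HOCl, at 1.00, 1.502 and 1.21 CPM. All 3 treated libraries lay above the highest untreated one. It rose 2.35-fold (log2 1.23 ± 0.32) (BH-adjusted p = 0.0131, edgeR QL test), and missed the threshold without HOCl replicate 2 (BH-adjusted p = 0.067, edgeR QL test). The other H1 genes had almost no counts in B16F10. Hist1h1a, the gene of H1.1, and the testis form Hist1h1t reached at most 0.0816 and 0.163 CPM. Hist1h1b, the gene of H1.5, was at 0 in all 6 libraries although none of its 100-base windows recurs in another gene.

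Hist1h2bc (ENSMUSG00000018102, chr13:23684199-23692908, + strand), an H2B gene, stood at 31.3, 27.1 and 28.8 CPM without HOCl and at 44.6, 41.99 and 38.0 CPM with it. The groups did not overlap, and per kb of exon it was the most abundant member in untreated B16F10, at 25.1 ± 1.84 CPM per kb (SD, n = 3). It rose 1.40-fold (log2 0.49 ± 0.08) (BH-adjusted p = 0.000689, edgeR QL test). Hist1h2bg (ENSMUSG00000058385, chr13:23571396-23572013, + strand) stood at 0.766, 0.987 and 0.632 CPM and, with HOCl, at 2.00, 1.79 and 2.28 CPM. The lowest treated library was well above the highest untreated one. It rose 2.49-fold (log2 1.32 ± 0.24) (BH-adjusted p = 0.00165, edgeR QL test). Hist1h2be (ENSMUSG00000047246, chr13:23583670-23621124, - strand) stood at 1.01, 0.840 and 0.893 CPM and, with HOCl, at 2.25, 1.52 and 1.36 CPM. The treated libraries were all higher but spread more widely. It rose 1.83-fold (log2 0.87 ± 0.25) (BH-adjusted p = 0.023, edgeR QL test). Its long model overlaps Hist1h1e on the same strand, so reads of these genes may be shared. Its call was lost without untreated replicate 2 (BH-adjusted p = 0.0612, edgeR QL test), untreated replicate 3 (0.0557) or HOCl replicate 1 (0.122).

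Hist2h2be, an H2B gene on chromosome 3 whose transcripts share no 100-base window with another gene, did not pass. It stood at 5.59, 6.78 and 6.41 CPM without HOCl and at 5.88, 5.90 and 6.19 CPM with it, and the groups overlapped. The log2 fold change was -0.09 ± 0.11. Hist1h2bj was higher in every HOCl library, at 0.0978 to 0.174 CPM without and 0.265 to 0.429 CPM with HOCl, but did not pass (log2 1.28 ± 0.48, BH-adjusted p = 0.0664, edgeR QL test). Hist1h2bh and Hist1h2bb overlapped between groups, at log2 values of 0.22 ± 0.44 and 0.60 ± 0.50.

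Among the H2A genes, Hist1h2ad (ENSMUSG00000071478, chr13:23574381-23574952, + strand) had 7, 2 and 3 counts in the untreated libraries and 20, 21 and 22 in the HOCl libraries. These are 0.114, 0.0420 and 0.0654 CPM against 0.408, 0.399 and 0.429 CPM, with no overlap. The log2 fold change was 2.37 ± 0.50, 5.16-fold (BH-adjusted p = 0.0042, edgeR QL test). DESeq2 gave it no adjusted p, and 63.6% of its 100-base windows recur in other genes, so the copy that gave these reads is uncertain. Hist3h2a on chromosome 11 stood at 4.45, 4.28 and 3.92 CPM without HOCl and at 5.33, 5.15 and 4.83 CPM with it. All treated libraries were higher, but by little, and the test was not passed (log2 0.25 ± 0.12, BH-adjusted p = 0.145, edgeR QL test). Its windows are shared at 29.8%, most with the overlapping gene Trim17. Hist1h2ac and Hist1h2ae overlapped between groups, at log2 values of 0.90 ± 0.43 and -0.30 ± 0.39. Hist1h2ac passed without the low-count filter (BH-adjusted p = 0.0469, edgeR QL test).

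Hist1h3d (ENSMUSG00000099583, chr13:23575763-23577011, + strand), an H3 gene, stood at 0.293, 0.168 and 0.305 CPM without HOCl and at 0.735, 0.856 and 0.838 CPM with it. The groups were far apart. It rose 3.07-fold (log2 1.62 ± 0.35) (BH-adjusted p = 0.00468, edgeR QL test). Hist2h3c2 and Hist1h3c were also higher in every HOCl library, at log2 values of 0.89 ± 0.33 and 0.87 ± 0.36, with BH-adjusted p of 0.0619 and 0.0987 by the edgeR QL test. Hist1h3e and Hist1h3g overlapped between groups. The H4 gene with the most counts, Hist1h4i (chr13:22040636-22041362, - strand), stood at 3.70, 3.34 and 3.05 CPM without HOCl and at 3.67, 2.62 and 2.77 CPM with it. The groups overlapped and the log2 fold change was -0.19 ± 0.17. Hist1h4h, Hist2h4 and Hist1h4d, the other H4 genes tested, overlapped too, at 0.11 ± 0.40, 0.65 ± 0.49 and 0.59 ± 0.62 on the log2 scale.

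**Figure D3:**
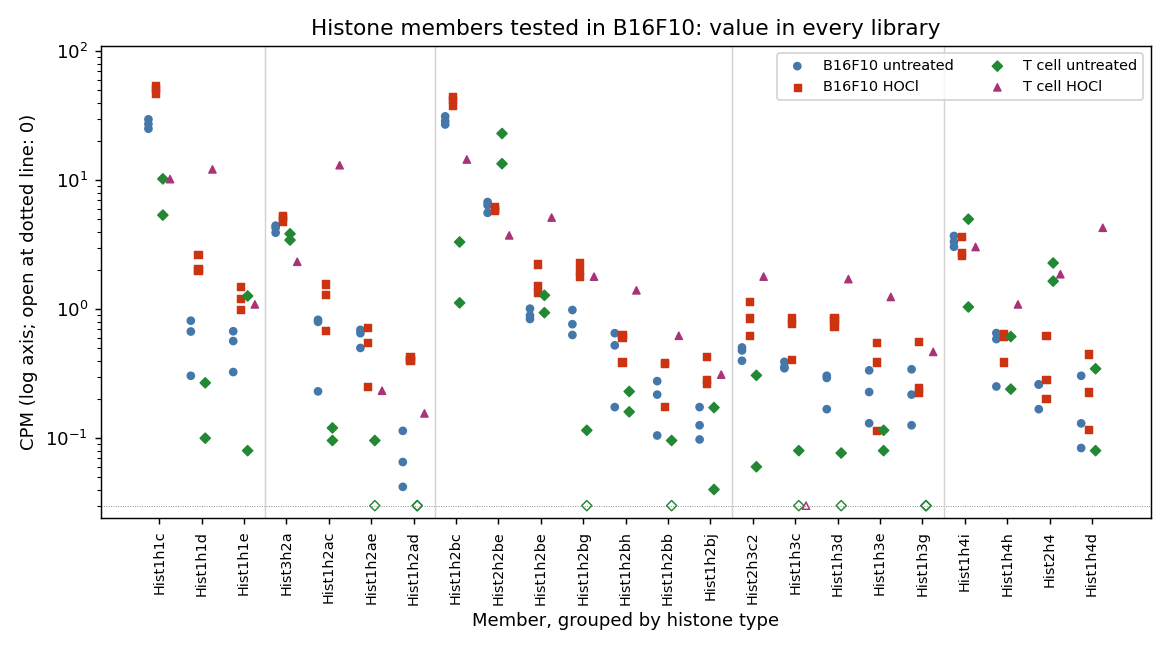
CPM, on a log axis, of the 23 members tested in B16F10, in each of the 9 libraries, grouped by histone type from H1 on the left to H4 on the right. Hist1h1c and Hist1h2bc stand above the rest in B16F10, Hist2h2be leads in untreated T cells, and several members with few counts elsewhere, such as Hist1h2ac at 13.1 CPM, are high in the T cell HOCl library.

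In all, 12 of the 23 members (52.2%) had HOCl libraries wholly above the untreated ones and 0 had them wholly below, against 25.2% and 18.4% of all genes tested. As 6 of the 23 reached the low-count filter in all HOCl libraries but not in every untreated one, these shares support no statement about the family. The 46 members outside the test reached at most 0.327 CPM in any B16F10 library. Of these, 21 were at 0 in all 6, among them 10 H2A, 5 H2B, 3 H3, 2 H4 and 1 H1 gene. In the authors' deposited table for B16F10, 16 members had an adjusted p, 7 of them under 0.05 with a positive fold change and 0 with a negative one. Of all genes with an adjusted p in the authors' deposited table, 16.3% were positive and 14.7% negative at that threshold. That table does not name its groups by treatment, so its sign is as deposited. The largest positive value among these in the authors' deposited table was 0.96 for Hist1h1d. Leaving out HOCl replicate 3, the library with T cell markers and with Ighm at 15.5 CPM, kept all 8 calls, and their part in its values was otherwise not tested.

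Companion genes of histone supply were read in the same B16F10 fit, in which 14.7% of all genes were higher and 13.5% lower. All 23 S phase genes listed fell, with a median log2 fold change of -0.50. Thymidine kinase Tk1 went from 124.7 ± 10.9 to 69.95 ± 2.15 CPM (log2 -0.86 ± 0.06), the transcription factor E2f1 from 89.0 ± 4.11 to 54.6 ± 1.62 CPM (-0.73 ± 0.06) and the replisome gene Gins2 from 26.2 ± 2.05 to 16.9 ± 1.92 CPM (-0.66 ± 0.09; SD, n = 3 each). In bulk libraries, fewer cells in S phase and less of these RNAs per cell cannot be told apart.

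Of 18 measured factors for histone transcription, 3' processing and decay, 1 rose and 1 fell, with a median of -0.03. Slbp, the stem-loop binding protein, fell from 77.0 ± 1.52 to 63.6 ± 2.39 CPM (log2 -0.30 ± 0.05) (BH-adjusted p = 0.00116, edgeR QL test). Mblac1, a nuclease of histone pre-mRNA, rose from 1.63 ± 0.371 to 2.60 ± 0.172 CPM (0.64 ± 0.21). Npat, which activates histone gene transcription, had a log2 value of 0.02 ± 0.08, its partner Casp8ap2 0.09 ± 0.08 and the U7 snRNP protein Lsm11 -0.10 ± 0.07, and none of these passed. Among 24 histone chaperones and deposition factors 12 fell and 1 rose, with a median of -0.14. The H3-H4 chaperone Asf1b fell by 0.51 ± 0.05 on the log2 scale, and the CAF-1 subunits Chaf1a and Chaf1b, which place new histones behind the replication fork, by 0.51 ± 0.05 and 0.40 ± 0.06. Mms22l, which acts at damaged forks, fell by 0.45 ± 0.06, and Ubn1, of the replication-independent HIRA complex, rose by 0.27 ± 0.05.

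Of 10 tested replication-independent and variant histone genes 1 rose and 2 fell, with a median of -0.03. H1f0, the H1 variant of resting and differentiated cells, rose from 134.9 ± 8.75 to 187.2 ± 6.51 CPM (SD, n = 3 each; log2 0.45 ± 0.06) (BH-adjusted p = 0.000142, edgeR QL test). H2afz, an H2A variant at promoters, went from 509.1 ± 8.59 to 415.1 ± 11.3 CPM (-0.32 ± 0.05), and the macroH2A gene H2afy from 97.0 ± 3.12 to 85.0 ± 3.17 CPM (-0.22 ± 0.05). Values for H2afx, H3f3a and H3f3b were 0.02 ± 0.07, 0.08 ± 0.06 and -0.10 ± 0.04, and did not pass. H1fx, another H1 variant and named after its values were seen, did not pass at 0.02 ± 0.34. Thus 4 H1 genes, Hist1h1c, Hist1h1d, Hist1h1e and H1f0, were higher with HOCl in the same libraries in which S phase genes were lower. Whether the listed genes and the histone members are linked was not tested.

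**Figure D4:**
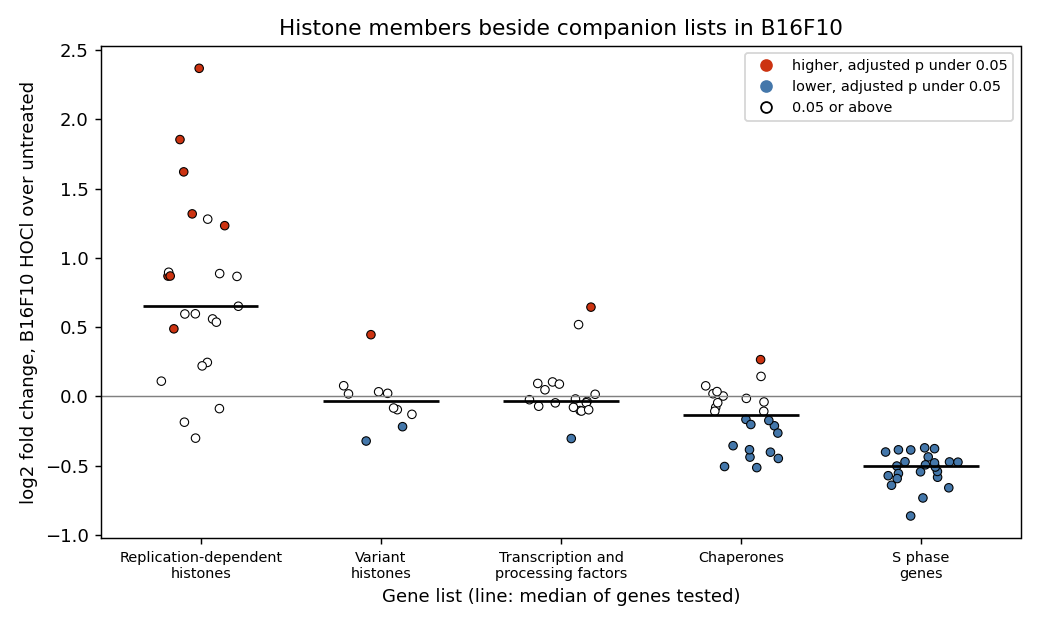
Log2 fold change of HOCl over untreated in B16F10 for each tested gene of the histone members and of 4 companion lists, with a line at each list's median. The members have a median of 0.65 and the S phase genes one of -0.50, with all 23 S phase genes below 0.

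Untreated T cells had another make-up of histone transcripts from untreated B16F10. The 69 members summed to 42.2 and 50.9 CPM in the T cell libraries, below all B16F10 libraries. Hist2h2be and Hist1h1c held 56.0% of these counts. H2B genes gave 27.6 and 22.3 CPM, H1 genes 5.55 and 12.1, H4 genes 4.35 and 10.48, H2A genes 4.41 and 4.93 and H3 genes 0.260 and 1.08 CPM. The 2 libraries thus differed over 2-fold in H1, H4 and H3 sums, with the second library higher. It also held more Ighm, Cd79a and Cd79b, as given above, and their part in these sums was not tested.

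Per kb of exon, the highest levels in untreated T cells were 6.96 ± 2.59 CPM per kb for Hist2h2be, 5.01 ± 2.21 for Hist1h1c, 4.76 ± 2.20 for the H2B gene Hist3h2ba and 4.15 ± 3.84 for Hist1h4i (SD, n = 2 each). Neighbours in this order did not differ beyond these spreads. In untreated B16F10 the order was Hist1h2bc at 25.1 ± 1.84, Hist1h1c at 17.5 ± 1.47, Hist1h4i at 4.63 ± 0.448, Hist2h2be at 2.39 ± 0.232 and Hist3h2a at 1.97 ± 0.126 CPM per kb (SD, n = 3 each), and each of these 5 differed from its neighbours by more than the SDs.

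Of 26 members tested between the cell types, 4 were higher in T cells, against 35.4% of the 18352 genes tested, and 7 were lower, against 35.8%. The median log2 difference was -0.96 over these members and 0.02 over all genes tested. Hist3h2ba and Hist1h4n had few or no counts in untreated B16F10. Hist1h2bg, Hist1h2ae, Hist1h3c, Hist1h3g and Hist1h2ac had few or none in untreated T cells. Their entry into the test rested on the group in which they were high, so the counts and median over tested members support no statement about the family. Hist2h2be stood at 23.1 and 13.4 CPM in T cells, above the highest B16F10 library at 6.78 CPM. It was 3.42-fold higher (log2 1.77 ± 0.26) (BH-adjusted p = 0.00148, edgeR QL test). Hist3h2ba stood at 1.96 and 3.88 CPM in T cells, while untreated B16F10 had 8 counts in replicate 1 and 0 in the others (log2 6.09 ± 1.08). Hist2h4, an H4 gene, stood at 2.28 and 1.65 CPM in T cells and 0.168 to 0.262 CPM in B16F10, with no overlap (log2 3.31 ± 0.40). The other gene higher in T cells, Hist1h4n, was named after its values were seen. It had 47 counts in T cells and 1 in untreated B16F10, a ratio of 71.4 with an exact 95% counting interval of 12.2 to 2877, and 80.7% of its 100-base windows recur elsewhere. Hist1h4n left the test, and with it Hist1h3c and Hist1h3g, when counts were halved.

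Hist1h2bc stood at 1.12 and 3.32 CPM in T cells against 27.1 to 31.3 CPM in B16F10, and the cell types were far apart. It was 10.8-fold lower (log2 -3.43 ± 0.52) (BH-adjusted p = 0.0018, edgeR QL test). Hist1h1c stood at 5.37 and 10.3 CPM in T cells, below every B16F10 library, and was 2.91-fold lower (log2 -1.54 ± 0.34) (BH-adjusted p = 0.00815, edgeR QL test). Hist1h2bg, at 0 and 0.115 CPM in T cells, was lower by a log2 difference of -3.45 ± 0.99, Hist1h2ae by -3.34 ± 0.97, Hist1h3c by -2.92 ± 0.94 and Hist1h2ac by -2.26 ± 0.75. Hist1h3g had no count in either T cell library and 37 in untreated B16F10, at least 3.89-fold lower when 3 counts per T cell library are allowed. These counts and sizes rest on single libraries. With each library left out in turn, the log2 difference ran from -8.32 to -2.48 for Hist1h2bg, from -7.95 to -2.37 for Hist1h2ae, from -7.19 to -2.03 for Hist1h3c, from -4.56 to -2.84 for Hist1h2bc and from -2.21 to -1.13 for Hist1h1c. Among the genes higher in T cells it ran from 5.36 to 10.4 for Hist3h2ba and from 1.40 to 2.02 for Hist2h2be. Without B16F10 untreated replicate 1 the number lower was 1, Hist1h2bc, and without replicate 2 or 3 it was 4 each, whereas without T cell replicate 2 it was 13. The number higher was 10 without T cell replicate 1. Scaling by library totals in place of TMM moved the median of all genes by -0.24 on the log2 scale and the members above 0 from 12 to 9 of 26, with the same 4 and 7 calls.

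Of the S phase genes, 21 of 23 were lower in T cells, with a median log2 difference of -2.91. Variant histones had 4 higher and 3 lower of 10, chaperones 5 and 10 of 24, and processing factors 4 and 3 of 18, beside 35.4% higher and 35.8% lower over all genes tested. Among these, H1f0 was lower by a log2 difference of -5.11 and H2afz by -1.32, and Lsm11 was higher by 1.10. Slbp, at 56.9 CPM in T cells and 77.0 CPM in B16F10, did not pass (-0.19).

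The T cell HOCl arm has 1 library and was not tested here, and by the markers given above that library held much melanocyte RNA. Its members summed to 116.1 CPM (exact 95% Poisson interval 110.2 to 122.1, counting error only), and 55 of 69 (79.7%) had a count, against 35 and 44 in untreated T cells. Of all 54838 genes, 80.6% had a count in this library, against 46.7% and 41.7% in untreated T cells. Without mitochondrial genes in the total, the members summed to 185.5 CPM, and with TMM scaling among the T cell libraries to 76.7 CPM. Of 61 members with a count in any T cell library, 46 (75.4%) stood above both untreated libraries, against 77.6% of all such genes, and 6 (9.84%) stood below both, against 15.4%. Without mitochondrial genes these shares were 83.6% of members against 82.9% of genes above, and 8.2% against 10.0% below. Both member shares were near those of all genes. Hist1h2bc stood at 14.5 CPM, Hist1h2ac at 13.1, Hist1h1d at 12.1, Hist1h1c at 10.2 and Hist4h4 at 9.26 CPM. Hist1h2ac, Hist1h1d and Hist4h4 were at most 1.57, 2.65 and 0.231 CPM in any B16F10 library, below their level here. Hist2h2be stood at 3.74 CPM (interval 2.75 to 4.95), below both untreated T cell libraries, and at 5.97 CPM without mitochondrial genes, still below both. In the authors' deposited table for T cells, 4 members had a positive and 1 a negative fold change with an adjusted p under 0.05, of 32 with an adjusted p. Over all genes in the authors' deposited table these shares were 31.2% and 12.3%. The negative one in the authors' deposited table was Hist2h2be at -3.01, and the positive ones were Hist1h1d, Hist1h2ac, Hist1h2al and Hist4h4. The groups of this T cell table are not named by treatment either, so its signs are as deposited.

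Near-identical copies may bear on many of these levels, which was not tested. Member counts also ran with exonic length, with a Spearman rank correlation of 0.53 to 0.61 in the untreated B16F10 libraries. For each member, the share of 100-base windows of its GENCODE M21 transcripts found on either strand in transcripts of another gene was computed. The share was over 75% in 18 members, of which 3 had a count in untreated B16F10 and 10 in untreated T cells. It was under 25% in 24 members, of which 18 had a count in untreated B16F10, and between in 27, of which 24 had one. The H2A genes shared most, with a median of 69.9%, and the H1 genes least, with 0.396%. For 5 members every window was shared, namely Hist2h2aa1, Hist2h2aa2, Hist2h2bb, Hist2h3b and Hist2h3c1, and all 5 were at 0 in the 9 libraries. The share also counts genes whose models overlap a member at its own locus, so it does not measure copy identity alone. For Hist2h2bb and Hist2h3b the gene sharing most windows was the overlapping model Gm20628, and for Hist2h3c1 it was the overlapping Gm20634. A count of 0 in such a member does not say that the gene was silent. Models of 26 members also overlap another annotated gene.

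**Figure D5:**
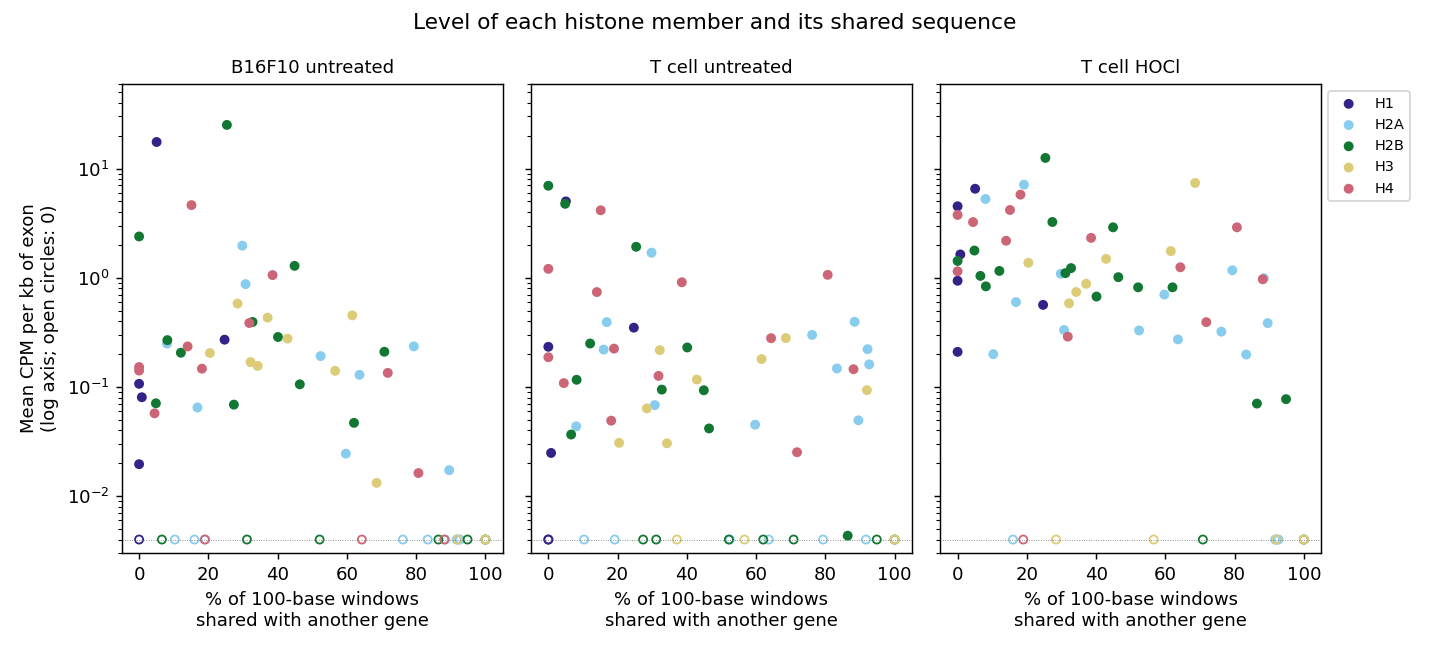
Mean CPM per kb of exon (log axis) of each of the 69 members against the share of its 100-base windows found in another gene, for untreated B16F10, untreated T cells and the T cell HOCl library, coloured by histone type. Most members with over 75% of windows shared stand at 0 in untreated B16F10, where 3 of 18 had a count, and Hist1h1c and Hist1h2bc stand highest.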

How the data were processed

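The authors deposited raw counts per gene, without normalisation. Genome build mm10 and the tools STAR 2.7.1a, featureCounts 1.6.0, FastQC 0.11.8 and DESeq2 1.22.2 are named, per the submitters' processing notes. The authors' deposited tables also gave a log2 fold change and an adjusted p-value per gene, set beside the results only where named. Members were matched by symbol in those tables and joined to the counts by Ensembl ID. Members and gene lists were chosen with earlier results of these data known.

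Each contrast was fitted on all genes with edgeR 4.0.16 in R 4.3.3 (filterByExpr, TMM, robust quasi-likelihood fit and test) and adjusted by Benjamini-Hochberg over all genes tested, at 0.05. SE is the log2 fold change over the square root of F. CPM is counts scaled to 1 M gene counts per library, and per kb uses merged exons of GENCODE M21. The test was checked on simulated counts: of genes changed 1.5-fold and 2-fold, 86% and 99% of 100 each were recovered among 16022 genes for the B16F10 contrast. The changed genes were drawn only from those above a minimum mean count, and all genes were given the same dispersion. These rates therefore do not hold for members with few counts, such as Hist1h2ad. No pair of replicates agreed within counting noise (chi-square per degree of freedom 3.73 to 23.2 in B16F10 and 393 in T cells). Depth ranged from 12.85 to 61.35 M counts.

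Named were all members in the B16F10 fit, members with at least 5% of member counts in a group, 11 fixed companion genes, and up to 3 rises and 3 falls per list. Alternatives were other scalings, filters and tools, a replicate block, glmTreat against a 1.5-fold change, all 9 libraries in 1 fit, each library left out and, added after an excess of even counts was seen, halved counts. Other totals for Hist2h2be and Hist3h2a in T cell HOCl were also added after the data were seen.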

Additional observations from a re-analysis of the deposited data

Results flagged for a closer look

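Hist3h2a, an H2A gene, stood higher in every B16F10 HOCl library (4.83 to 5.33 CPM) than in every untreated one (3.92 to 4.45 CPM), while the T cell HOCl library stood at 2.34 CPM (exact 95% Poisson interval 1.58 to 3.33), below untreated T cells at 3.44 and 3.85 CPM. The opposite moves drew attention to it. Without mitochondrial genes in the totals, the T cell HOCl library stood at 3.73 CPM, between the untreated ones at 3.51 and 3.91 CPM, so the move in T cells depends on the scaling. TMM scaling lowered the member sum of this library, and the value of Hist3h2a under it is not given here. The difference between the cell types was not tested, the T cell arm has 1 library, and the B16F10 change did not pass (BH-adjusted p = 0.145, edgeR QL test).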

How the results depend on the processing

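In B16F10 the 8 higher and 0 lower members were 8 under DESeq2's size factors, library totals and halved counts, 7 under DESeq2, 10 without a filter, 6 at 1 CPM and 9 with the replicate block, and ranged from 7 to 9 when each library was left out in turn, with 0 lower in each. The count was 0 with all 9 libraries in 1 fit (adjusted p of the 8 then from 0.214 to 0.798), where 11 of 34290 genes were higher and 26 lower, and 0 against a 1.5-fold change, where 28 and 45 of 16082 genes were called; the cause was not tested. Between cell types, 4 higher became 8 without a filter and 4 to 10 with a library left out, and 7 lower became 2 at 1 CPM and 1 to 13 with a library left out. Hist1h4n left the test at 1 CPM and with halved counts, where 3 higher were kept, and with halved counts Hist1h3c and Hist1h3g left it too, where 5 lower were kept. With each library left out, Hist1h4i ran from -1.56 to 0.86 and Hist1h1e from -2.52 to 1.58 on the log2 scale, both reversed without T cell untreated replicate 2. Same-numbered B16F10 libraries did not deviate together (r = 0.0352, -0.00347 and 0.00148). These values show no pairing by number, but with so few libraries they cannot exclude it. With the replicate block the numbers were 9 higher and 0 lower in B16F10 and 4 and 5 between cell types. Hist1h2ac was the added call in B16F10 (BH-adjusted p = 0.0206, edgeR QL test), and Hist1h2ac and Hist1h3c were those lost between cell types. In the B16F10 and untreated T cell groups, summed CPM of all members moved by less than 1 SD under TMM scaling and without mitochondrial genes. With a library left out, it ran from 76.4 to 81.5 untreated and from 119.1 to 127.2 HOCl in B16F10, and from 42.2 to 50.9 in T cells. With so few libraries per group, that last shift is below 1 SD by arithmetic, so it is no check. In T cell HOCl the sum of 116.1 CPM became 185.5 CPM without mitochondrial genes, which took 37.43% of its counts, and 76.7 CPM under TMM scaling. Depth limits the members under about 0.2 CPM, which were not tested.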
